A study of Mus musculus with 28 samples.

Results

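Clec7a, Clec4n, Clec4d, Clec4e, Clec4a2, Clec10a and Mrc1, the C-type lectin receptor genes described here, encode sugar-binding receptors at the surface of macrophages. They were taken by gene symbol, because 1 of the injected agents, β-glucan, is the ligand of the Clec7a product. All 7 were found among 19938 genes with a probe set assigned to 1 symbol, each measured by 1 probe set, and each lay above the array background in all 28 arrays. C-type lectin receptors bind through a shared lectin fold and read the glycans of fungi, bacteria, parasites and the body's own cells. Some carry or borrow an activating tyrosine motif that recruits the kinase SYK and, through the adaptor CARD9, turns on NF-κB. Others carry an inhibitory motif that recruits phosphatases, and further ones take up glycoproteins without a signalling motif of that sort.

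The study measured messenger RNA in mouse peritoneal resident macrophages, the self-maintaining phagocytes of the abdominal cavity, obtained by washing without an eliciting agent. They were kept in a serum-free medium overnight, loosely attached cells were rinsed away, and 100 ng of total RNA was amplified for each array. The 28 arrays form 7 groups of 4, stated to be independent biological experiments. The labels assign no ages or sex to single animals, do not say how many mice gave each sample, and give no doses.

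All groups share the C57BL/6 background. The KO group came from uninjected mice lacking ATF7, a transcription factor of the ATF/CREB family, and the WT group from uninjected wild-type mice, both of unstated age. The BG (β-glucan), LPS (from E. coli), PGN and IMQ (imiquimod) groups came from wild-type mice injected into a vein with the named agent, and the PBS group from mice injected with buffer. The sample labels place collection 3 weeks after injection, while the protocol says that mice injected at 7 to 8 weeks of age were analysed 3 to 4 weeks later, at 10 to 12 weeks. The comparisons asked how macrophages without ATF7 differ before any injection, and which differences from PBS remained weeks after each agent.

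Arrays within a group correlated at 0.985 to 0.996 over all probe sets, and arrays of different groups at 0.98 to 0.995. After genes at background were set aside, 13503 genes were tested with limma, and a gene was called at a Benjamini-Hochberg adjusted p under 0.05 within a comparison. Atf7 averaged 10.28 ± 0.0418 in KO and 10.73 ± 0.0788 in WT on the log2 scale (SD, n = 4 each), lower in all 4 KO arrays (log2 difference -0.45, limma adjusted p = 8.51e-08). A probe set without a gene in the platform table read 10.81 to 11.02 in the PGN and IMQ arrays and 11.29 to 11.60 in the other 20, so what sets these 2 groups of arrays apart there and the agent injected cannot be told apart. Markers of large peritoneal macrophages, 11 of 12 tested and none under the floor in all arrays, had a summed linear signal of 25243 to 27293 in KO and 28325 to 31757 in WT, and of 21765 to 23960 after BG and 25439 to 31625 after PBS. Of 13 B cell markers with a probe set, Fcer2a and Cr2 stayed under the floor in all 28 arrays. Of the 11 large peritoneal macrophage markers, 4 were lower in KO and 7 did not pass (10.7% of all genes lower), so the lower sum did not come with a call in each of them. In such bulk samples, fewer cells of a type and less RNA per cell cannot be told apart.

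The receptors that responded in different comparisons are shown first by the DNA just upstream of their annotated start. The RefSeq promoter table (build GRCm38.p6) holds 5 of the 7 genes, without Clec4n and Clec10a. It lists 2 starts for Clec7a, and only the window of the first listed was read. The 250 bases before the start are printed for the β-glucan receptor gene Clec7a (chr6:129472780-129473029, minus strand), for Clec4d, lower in KO and after every agent (chr6:123261857-123262106, plus strand), and for Mrc1, which had the largest difference (chr2:14229164-14229413, plus strand). Each runs 5′ to 3′ on the gene's strand, and capitals mark GAGGAA or its reverse complement, the core bound by PU.1, a transcription factor of macrophages.
Clec7a: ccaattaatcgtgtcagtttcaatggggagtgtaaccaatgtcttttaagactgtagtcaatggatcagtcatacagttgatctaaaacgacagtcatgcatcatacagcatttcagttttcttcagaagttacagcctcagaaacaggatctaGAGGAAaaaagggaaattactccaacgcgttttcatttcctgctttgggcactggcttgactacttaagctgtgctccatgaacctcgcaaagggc
Clec4d: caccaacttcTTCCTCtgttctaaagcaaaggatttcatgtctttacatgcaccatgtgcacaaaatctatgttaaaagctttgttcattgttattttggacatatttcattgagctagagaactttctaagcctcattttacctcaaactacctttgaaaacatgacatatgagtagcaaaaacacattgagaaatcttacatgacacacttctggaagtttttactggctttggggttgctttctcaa
Mrc1: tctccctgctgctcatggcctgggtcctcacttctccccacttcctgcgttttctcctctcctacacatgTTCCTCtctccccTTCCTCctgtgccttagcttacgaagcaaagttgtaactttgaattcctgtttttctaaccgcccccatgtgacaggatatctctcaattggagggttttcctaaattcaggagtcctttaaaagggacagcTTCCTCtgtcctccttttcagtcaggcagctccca
The core occurred 1 time in the Clec7a window, 96 to 91 bases before the start, 1 time in the Clec4d window, 240 to 235 bases before it, and 3 times in the Mrc1 window. The Clec4e window held it 2 times and the Clec4a2 window 0 times. On either strand, 23.3% of the 32851 annotated windows of this length hold it at least 1 time. The cAMP response element TGACGTCA, to which proteins of the ATF/CREB family bind, its half-site TGACG, which the full element contains, and the AP-1 motif TGANTCA were not in these 5 windows. Among all windows 1.55%, 17.8% and 6.75% hold these 3 motifs. These matches describe letters and are not evidence of binding.

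In KO macrophages 2 of the 7 receptor genes were higher and 2 lower than in WT (of all genes tested 17.7% were higher and 10.7% lower, 28.4% together). Against PBS, BG raised 1 and lowered 3 (41.6% of all genes called, 20.2% higher and 21.4% lower), LPS lowered 4 (9.86%, 5.51% lower), and PGN and IMQ each lowered 2 (3.91%, 1.81% lower, and 5.7%, 2.6% lower). In PBS against WT 2 were higher (32.7%, 19.8% higher). The age of the WT mice is not stated, so for any injected group against WT, injection and age cannot be told apart. With 7 genes and backgrounds of this size, the counts in KO, after BG and after PBS are descriptions and not results about the receptors as a set. The same holds for the counts after LPS, PGN and IMQ, which are all set against the same PBS arrays. The count after LPS fell to 0 without LPS replicate 2. An F test over the 4 agents against PBS called 5 of the 7, missing Clec4e and Clec4a2, where it called 53.8% of all genes. The 4 agent comparisons share the PBS arrays, so their differences are given side by side and do not count as separate evidence.

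**Figure D1:**
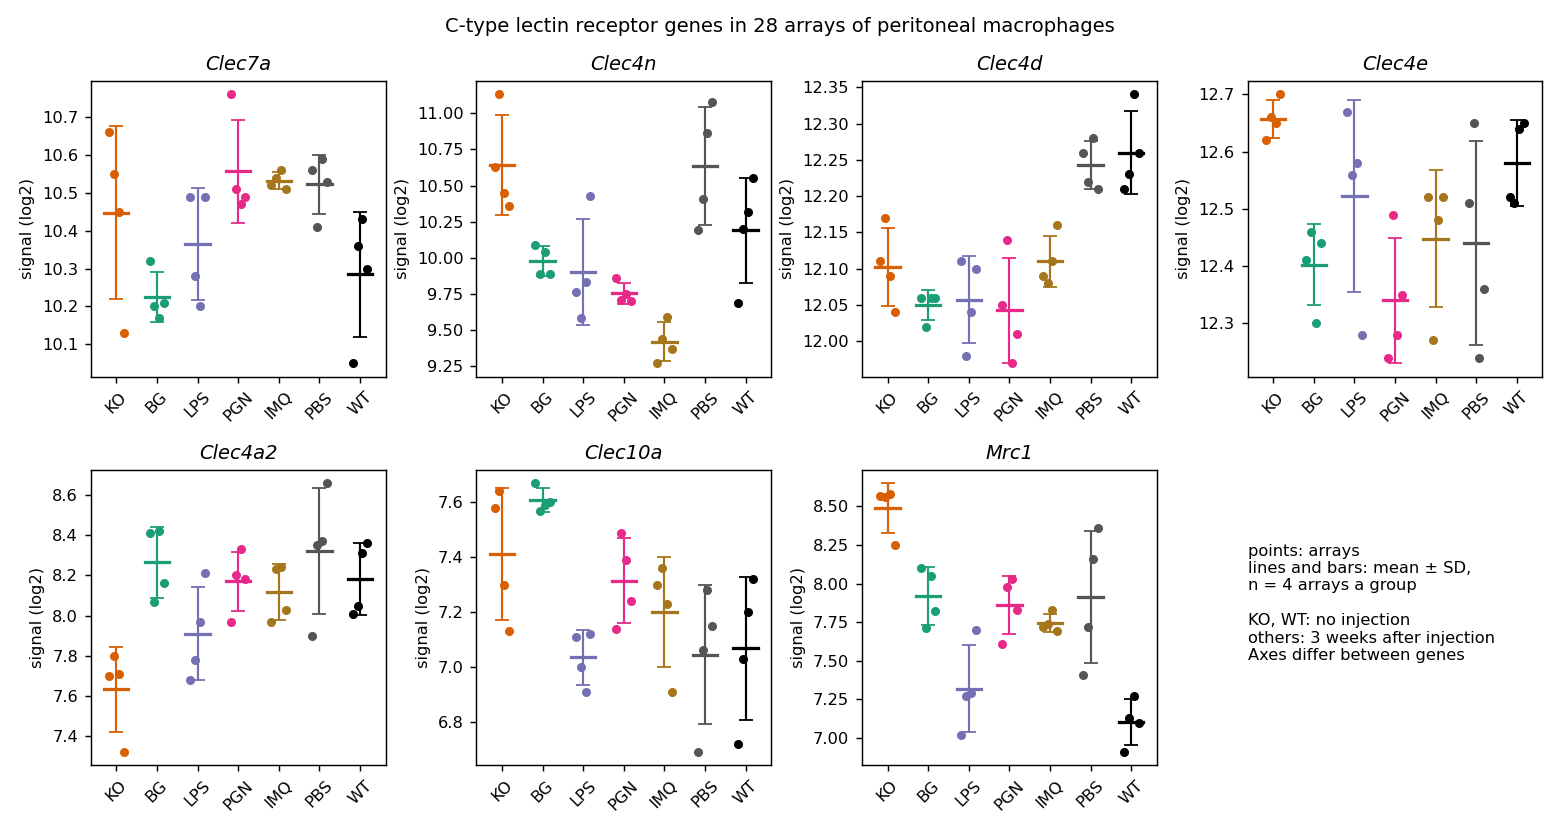
Log2 signal of the 7 receptor genes (vertical axes, each on its own range) in the 7 groups (horizontal axes); points are arrays, horizontal lines means and bars SD of 4 arrays. Every Clec4d array of KO and the 4 agents lies at 11.97 to 12.17, and every PBS and WT array at 12.21 to 12.34.

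**Figure D2:**
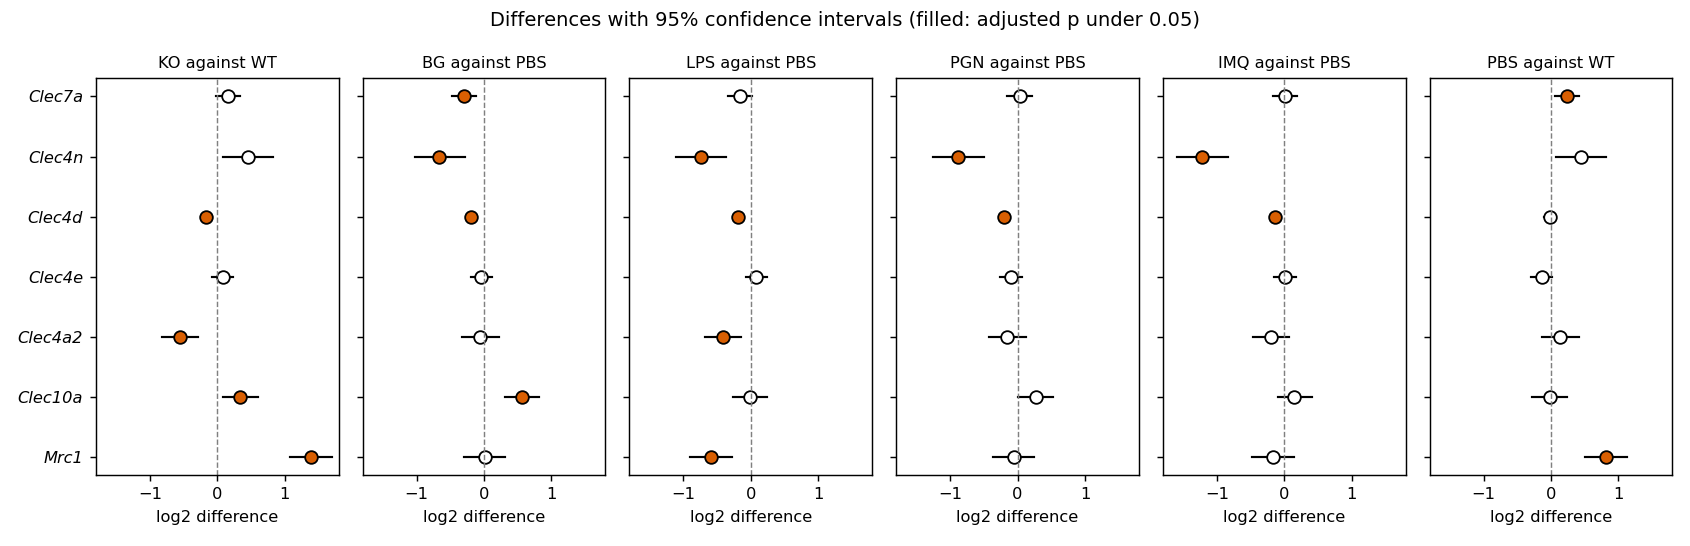
Log2 differences of the 7 receptor genes in 6 comparisons (horizontal axes) with 95% confidence intervals from limma; filled points passed an adjusted p under 0.05. Mrc1 in KO against WT has the largest difference, at 1.39, and Clec4n and Clec4d lie left of 0 in each of the 4 comparisons of an agent with PBS.

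Clec7a encodes dectin-1, the main myeloid receptor for β-1,3-glucan, which signals to SYK through a motif in its own tail. It was lower after BG than after PBS, PGN or IMQ, but not detectably lower than in uninjected WT macrophages. The BG arrays read 10.32, 10.20, 10.17 and 10.21 on the log2 scale, and the PBS arrays 10.56, 10.41, 10.59 and 10.53. All 4 BG arrays lay below all 4 PBS arrays (log2 difference -0.30, SE 0.0885, 1.23-fold lower, limma adjusted p = 0.00828, exact two-sided permutation p = 0.0286, the smallest that 4 against 4 allows).

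The PGN arrays read 10.76, 10.51, 10.47 and 10.49, and the IMQ arrays 10.52, 10.54, 10.56 and 10.51, so the BG arrays lay below these too. BG was lower than PGN by a log2 difference of -0.33 (limma adjusted p = 0.00459) and lower than IMQ by -0.31 (limma adjusted p = 0.00763). These direct comparisons called 31.8% and 36.8% of all genes, and 1 and 3 of the 7 receptors. Against LPS, with arrays at 10.49, 10.28, 10.20 and 10.49, the difference of -0.14 did not pass (limma adjusted p = 0.228).

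Against uninjected WT (10.05, 10.36, 10.43 and 10.30), BG did not differ detectably in Clec7a (log2 difference -0.06, 95% interval -0.24 to 0.12, limma adjusted p = 0.624). PBS was higher than WT in Clec7a by 0.24 (limma adjusted p = 0.0404), but the PBS and WT arrays overlapped, and the call was lost without any of PBS replicates 1, 3 and 4 or WT replicates 1, 2 and 4 (adjusted p up to 0.187). PGN and IMQ were also above WT, by 0.27 and 0.25 (limma adjusted p = 0.0213 and 0.0339). The KO arrays spread over 10.66, 10.55, 10.45 and 10.13, with a mean difference from WT of 0.16 that did not pass (limma adjusted p = 0.188); without KO replicate 4, the lowest of them, it was 0.27 and passed (limma adjusted p = 0.0134). In the order of group means BG was lowest and PGN highest, and in none of the 6 pairs of neighbours did the means differ past the threshold.

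Clec4n, Clec4d and Clec4e lie next to each other on chromosome 6 and encode dectin-2, MCL and mincle. Their products lack an activating motif of their own and signal to SYK through the Fc receptor γ chain (Fcer1g). Dectin-2 binds mannans, while MCL and mincle bind mycobacterial glycolipids and pair with each other.

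Clec4n was lower than PBS after each agent. The IMQ arrays read 9.27, 9.44, 9.59 and 9.37, the PGN arrays 9.86, 9.71, 9.75 and 9.70, the BG arrays 10.09, 9.89, 10.04 and 9.89, and the LPS arrays 9.76, 9.58, 9.83 and 10.43, against 10.19, 10.41, 10.86 and 11.08 in the PBS arrays. The IMQ, PGN and BG arrays all lay below the lowest PBS array, while LPS replicate 4 lay above PBS replicates 1 and 2.

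The log2 difference in Clec4n from PBS was -1.22 after IMQ (2.32-fold lower, limma adjusted p = 0.000191), -0.88 after PGN (1.84-fold lower, limma adjusted p = 0.006), -0.66 after BG (1.58-fold lower, limma adjusted p = 0.00518) and -0.74 after LPS (limma adjusted p = 0.021). The LPS call was lost without PBS replicate 3, PBS replicate 4 or LPS replicate 2 (adjusted p up to 0.106). PBS had the widest spread of the 7 groups in this gene (10.64 ± 0.41, SD, n = 4), and was 0.45 above WT without passing (limma adjusted p = 0.0603). Against WT (9.69, 10.20, 10.32 and 10.55), IMQ alone among the agents passed (-0.77, limma adjusted p = 0.00245), and the differences of PGN, LPS and BG were -0.43, -0.29 and -0.21. The step between BG and IMQ was itself past the threshold (0.56, arrays not overlapping, limma adjusted p = 0.0181), though not without IMQ replicate 1 (adjusted p = 0.0501). The PGN and IMQ arrays also stood apart in the probe set without a gene, so what sets them apart there and the agent cannot be told apart.

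Clec4d showed small differences with very little spread. It read 12.11, 12.17, 12.09 and 12.04 in KO macrophages and 12.21, 12.23, 12.34 and 12.26 in WT macrophages. The injected agents left 12.06, 12.02, 12.06 and 12.06 (BG), 12.11, 11.98, 12.04 and 12.10 (LPS), 12.05, 12.14, 11.97 and 12.01 (PGN) and 12.09, 12.08, 12.11 and 12.16 (IMQ), against 12.26, 12.22, 12.28 and 12.21 after PBS. All 8 arrays of PBS and WT therefore lay above all 20 others.

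The log2 difference in Clec4d was -0.16 in KO against WT (1.12-fold lower, limma adjusted p = 0.00236). Against PBS it was -0.19 after BG (1.14-fold lower, adjusted p = 0.000228), -0.19 after LPS (adjusted p = 0.0128), -0.20 after PGN (adjusted p = 0.00317) and -0.13 after IMQ (adjusted p = 0.0372), all by limma. Against WT the 4 agents differed by -0.21, -0.20, -0.22 and -0.15 in the same order, and each passed, the largest limma adjusted p being 0.00406 (BG, LPS, PGN and IMQ against WT called 38.1%, 9.18%, 30% and 33% of all genes). PBS did not differ detectably from WT (-0.02, limma adjusted p = 0.743). The call after IMQ was lost without any of IMQ replicates 1, 2 and 3 or PBS replicates 1, 3 and 4 (adjusted p up to 0.111), that after LPS without LPS replicate 2 (adjusted p = 0.0655), and that in KO once arrays were centred on their medians (-0.10, adjusted p = 0.0632) or with the B cell marker mean as a covariate (-0.20, adjusted p = 0.063).

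This separation of both control groups from the rest was sought after the Clec4d values were seen, and was then counted over all genes. In 3 of 13503 genes (0.0222%) every PBS and WT array lay above all others, and in 2 (0.0148%) below. The other two of the first kind were Arg2, an arginase of mitochondria (9.25 to 10.36 in the 20 arrays of KO and the agents, against 10.44 to 10.80 in PBS and WT), and Nbr1, an autophagy receptor (9.54 to 9.73 against 9.73 to 9.83). The 2 of the second kind were Psmb10 and Psme1, parts of the immunoproteasome and its activator. Neutrophils also express Clec4d. Of 12 neutrophil markers Ly6g, Ngp, Ltf, Retnlg and Cxcr2 were under the floor in all arrays. The summed linear signal over the list was 4193 to 4490 after BG, 4476 to 5131 after PBS, 4555 to 5072 in KO and 4459 to 5204 in WT. Of 5 markers tested, Mmp9 was higher in KO (0.80, limma adjusted p = 0.0018). Csf3r and Mmp8 were lower (-0.23 and -0.56, limma adjusted p = 0.0235 and 0.00845), where 28.4% of all genes were called. After BG 2 of the 5 were lower (41.6% of all genes called). The part of these cells in the Clec4d result was not tested.

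Clec4e had group means between 12.34 and 12.66, and passed in none of the 9 comparisons planned. Its KO arrays read 12.62, 12.66, 12.65 and 12.70, and its WT arrays 12.52, 12.51, 12.64 and 12.65 (log2 difference 0.08, 95% interval -0.08 to 0.23, limma adjusted p = 0.517). After BG it read 12.41, 12.46, 12.30 and 12.44, and after PBS 12.51, 12.65, 12.24 and 12.36 (log2 difference -0.04, 95% interval -0.19 to 0.12, limma adjusted p = 0.731). Both pairs of groups overlapped. Outside those 9 comparisons, Clec4e passed in 5 pairs. KO was higher than PGN by 0.32 (limma adjusted p = 0.00195, 35.2% of all genes called), than BG by 0.25 (limma adjusted p = 0.012, 32.8%), than PBS by 0.22 (limma adjusted p = 0.0278, 38.6%) and than IMQ by 0.21 (limma adjusted p = 0.034, 38.1%). In these 4 pairs an absent ATF7 and an injection differ together. PGN was lower than WT (-0.24, limma adjusted p = 0.0202).

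Clec4a2 encodes DCIR, a receptor with an inhibitory motif that recruits the phosphatases SHP-1 and SHP-2. Its signal was lowest in KO macrophages. The KO arrays read 7.70, 7.80, 7.71 and 7.32, all below the WT arrays at 8.01, 8.05, 8.31 and 8.36 (log2 difference -0.55, 1.46-fold lower, limma adjusted p = 0.00239). B cells also express this gene, and 10 of the 11 B cell markers tested were lower in KO (10.7% of all genes lower). Their summed linear signal was 2149 to 3541 in KO and 3878 to 6774 in WT. With the mean B cell marker signal as a covariate the log2 difference of Clec4a2 was -0.70 and did not pass (adjusted p = 0.0644). This covariate itself differs between KO and WT, so the fit cannot separate B cells from the absence of ATF7. The part of these cells in the result was not tested.

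After LPS, Clec4a2 read 7.68, 7.78, 7.97 and 8.21, overlapping the PBS arrays at 7.90, 8.35, 8.37 and 8.66. The log2 difference of -0.41 passed narrowly (limma adjusted p = 0.0495) and was lost without any of PBS replicates 2, 3 and 4 or LPS replicates 1, 2 and 3 (adjusted p up to 0.167). BG, PGN and IMQ left it within 0.20 of PBS on the log2 scale, without passing (limma adjusted p = 0.76, 0.594 and 0.413).

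Clec10a encodes MGL1 and is used as a marker of alternatively activated macrophages. It was highest after BG. The BG arrays read 7.67, 7.57, 7.59 and 7.60, and the PBS arrays 6.69, 7.06, 7.28 and 7.15. The groups did not overlap (log2 difference 0.56, 1.48-fold higher, limma adjusted p = 0.000788).

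BG also exceeded LPS in Clec10a by 0.58 (limma adjusted p = 0.000712), IMQ by 0.41 (limma adjusted p = 0.0118) and WT by 0.54 (limma adjusted p = 0.00113), with no overlap of arrays in these 3 comparisons. The difference from IMQ was lost without IMQ replicate 4 (adjusted p = 0.0626), and that from PGN (0.29) did not pass although the arrays did not overlap (limma adjusted p = 0.0748). BG against LPS called 34.9% of all genes and 3 of the 7 receptors, the others being Mrc1 and Clec4a2 (0.35, limma adjusted p = 0.0394, lost without any of BG replicates 1 and 3 or LPS replicates 1, 2 and 3). LPS, PGN and IMQ differed from PBS by -0.01, 0.27 and 0.15 without passing (limma adjusted p = 0.95, 0.251 and 0.522). The KO arrays read 7.58, 7.64, 7.30 and 7.13, and overlapped the WT arrays at 6.72, 7.03, 7.20 and 7.32. That difference of 0.34 passed (limma adjusted p = 0.04, exact two-sided permutation p = 0.143), but was lost without WT replicate 1, WT replicate 2, KO replicate 1 or KO replicate 2 (adjusted p up to 0.204), and came to 0.08 once the B cell marker mean was in the fit (adjusted p = 0.894).

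Mgl2, the neighbour and close paralogue of Clec10a on chromosome 11, was also higher after BG, at 7.13 ± 0.085, against 6.61 ± 0.312 after PBS (SD, n = 4 each; log2 difference 0.52, limma adjusted p = 0.000163). In KO it was 0.23 above WT without passing (limma adjusted p = 0.0794). Whether the probes of these paralogues, or of the Clec4a genes, bind each other's transcripts was not tested.

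Mrc1 encodes the mannose receptor CD206, an endocytic receptor for mannosylated glycoproteins and a further marker of alternative activation. It had the largest difference of any of the 7 genes in the 9 comparisons planned. KO macrophages read 8.57, 8.56, 8.58 and 8.25, against 6.91, 7.13, 7.27 and 7.10 in WT macrophages. The lowest KO array lay well above the highest WT array (log2 difference 1.39, SE 0.15, 2.62-fold higher, limma adjusted p = 1.28e-07).

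The PBS arrays also had a higher Mrc1 signal, at 7.41, 7.72, 8.16 and 8.36, than those WT arrays (log2 difference 0.81, 1.76-fold higher, limma adjusted p = 0.000343). Injection and a possible difference in age cannot be told apart here. The groups did not overlap, but the PBS arrays were spread over nearly a full log2 unit. BG (8.10, 7.71, 8.05 and 7.82), PGN (7.61, 7.98, 8.03 and 7.83) and IMQ (7.72, 7.74, 7.83 and 7.69) lay within the PBS range. They were above WT by 0.82, 0.76 and 0.64 (limma adjusted p = 8.54e-05, 0.000399 and 0.00203), and differed from PBS by 0.01, -0.05 and -0.17 without passing.

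LPS left Mrc1 at 7.02, 7.27, 7.29 and 7.70, lower than PBS by -0.59 on the log2 scale (limma adjusted p = 0.0227), with LPS replicate 4 above PBS replicate 1. That call was lost without PBS replicate 3, PBS replicate 4, LPS replicate 1 or LPS replicate 2 (adjusted p up to 0.0891). BG was higher than LPS by 0.60 with no overlap (limma adjusted p = 0.00253), and LPS did not pass against WT (0.22, limma adjusted p = 0.407). In the order of group means KO stood above BG, the next group, by 0.57 (limma adjusted p = 0.00409, in a pair that called 32.8% of all genes). The LPS comparison as a whole rested on a few arrays: it called 4 genes without LPS replicate 2, 172 without PBS replicate 3 and 439 without PBS replicate 4, where all arrays gave 1331.

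Ordered by mean from low to high, Clec4n ran IMQ, PGN, LPS, BG, WT, PBS and KO, Clec4d ran PGN, BG, LPS, KO, IMQ, PBS and WT, and Mrc1 ran WT, LPS, IMQ, PGN, PBS, BG and KO. Clec4a2 ran KO, LPS, IMQ, PGN, WT, BG and PBS, Clec10a ran LPS, PBS, WT, IMQ, PGN, KO and BG, and Clec4e ran PGN, BG, PBS, IMQ, LPS, WT and KO. Of the 6 pairs of neighbours in each order, 1 passed in Clec4d (PBS above IMQ by 0.13), 2 in Mrc1 (KO above BG, and IMQ above LPS by 0.42, limma adjusted p = 0.0477, in a pair that called 19.2% of all genes) and 0 in each of the other genes by limma.

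Clec4a2, Clec4n, Clec4d and Clec4e belong to 1 gene cluster on chromosome 6, whose order in the RefSeq table is Clec4a1, Clec4a3, Clec4a4, Clec4b1, Clec4a2, Clec4b2, Clec4n, Clec4d and Clec4e. After BG, Clec4a3 was lower (10.73 ± 0.11 after BG, 11.30 ± 0.0647 after PBS, SD, n = 4 each; log2 difference -0.57, limma adjusted p = 6.26e-08), as was Clec4a1 (-0.37, limma adjusted p = 5.34e-05). Clec4b1 went the other way, at 6.67 ± 0.271 after BG and 6.10 ± 0.326 after PBS (limma adjusted p = 0.0354), with arrays that overlapped and a PBS mean under the floor, so that no fold is given. Clec4a2 and Clec4e of the same cluster did not pass.

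**Figure D3:**
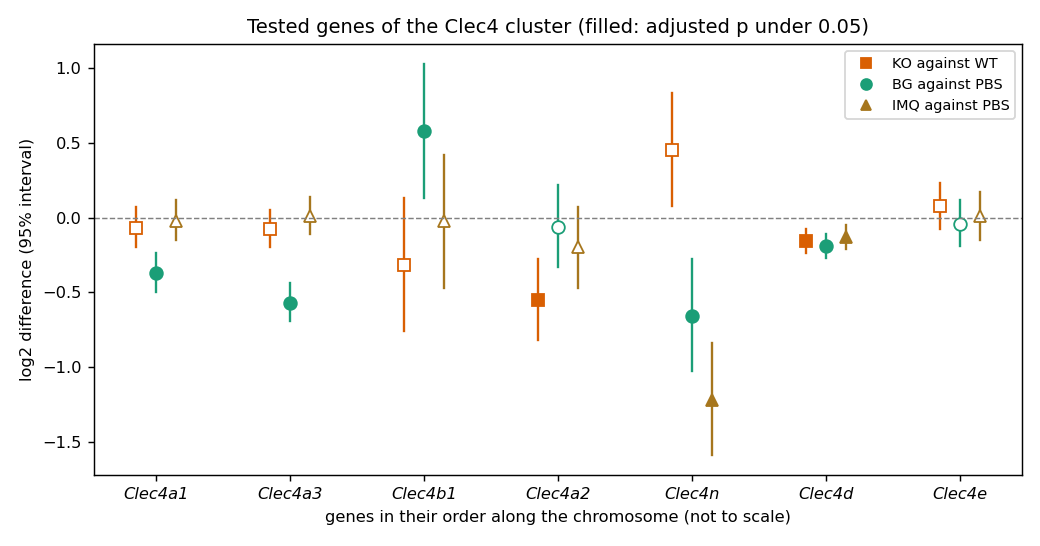
Log2 differences with 95% confidence intervals (vertical axis) for the 7 tested genes of the Clec4 cluster, in chromosomal order (horizontal axis, not to scale), in KO against WT, BG against PBS and IMQ against PBS; filled symbols passed an adjusted p under 0.05. Clec4d is filled in all 3 comparisons, Clec4n after BG and IMQ, Clec4a2 in KO, and Clec4a3, Clec4a1 and, above 0, Clec4b1 after BG.

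Among 34 other C-type lectin and lectin-like receptors, 19 were tested. After BG 2 were higher and 7 lower, beside 20.2% higher and 21.4% lower among all genes (41.6% together). The median log2 difference was 0.00 over the list and 0.0188 over all genes. Olr1, the neighbour of Clec7a that encodes the receptor for oxidised LDL, was 2.4-fold lower (8.33 ± 0.253 after BG, 9.60 ± 0.323 after PBS, limma adjusted p = 1.17e-06), and Cd209a, which encodes a DC-SIGN homologue, 2.48-fold lower (limma adjusted p = 2.08e-05). In KO 2 were higher and 4 lower (median -0.05, all genes 0.00532), beside 17.7% higher and 10.7% lower among all genes (28.4% together). Olr1 was lower here as well (-0.80, limma adjusted p = 0.00057), Cd209a was lower (-0.84, limma adjusted p = 0.00341), and Clec12a, an inhibitory receptor for uric acid crystals, was higher (0.48, limma adjusted p = 0.00304). After LPS, PGN and IMQ, 1, 0 and 1 of the 19 passed, beside 9.86%, 3.91% and 5.7% of all genes. The gene that rose after IMQ was Clec5a, a receptor that signals through DAP12 (0.40, limma adjusted p = 0.0355).

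Of the genes that carry the signal from these receptors to NF-κB or end it, 34 of 38 were tested. After BG 10 were higher and 7 lower (median -0.01), beside 20.2% higher and 21.4% lower among all genes, with a median of 0.0188. Syk rose slightly (10.65 ± 0.0651 after BG, 10.46 ± 0.0742 after PBS; log2 difference 0.19, limma adjusted p = 0.00201), while Card9 (-0.08, limma adjusted p = 0.37) and Fcer1g (-0.03, limma adjusted p = 0.567) did not pass. The phosphatase genes Ptpn6 and Ptpn11, which encode SHP-1 and SHP-2, were higher by 0.28 and 0.31 (limma adjusted p = 4.21e-07 and 3.83e-06), and Inpp5d, which encodes the lipid phosphatase SHIP-1, was lower (-0.40, limma adjusted p = 3.45e-06), as was the NF-κB subunit gene Rel (-0.37, limma adjusted p = 1.81e-07).

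In KO 9 of the 34 were higher and 5 lower (median 0.00), beside 17.7% higher and 10.7% lower among all genes. Malt1, the protease of the CARD9 complex, was higher (0.63, limma adjusted p = 1.3e-05), as were the kinase gene Src (0.53, limma adjusted p = 0.000313), Ptpn6 (0.24, limma adjusted p = 6.98e-06), Syk (0.13, limma adjusted p = 0.0403) and Fcer1g (0.11, limma adjusted p = 0.0205). The 5 lower ones included Inpp5d (-0.27, limma adjusted p = 0.000586) and Rel (-0.12, limma adjusted p = 0.0332). Card9 did not pass (-0.13, limma adjusted p = 0.174). LPS and PGN each lowered 1 and IMQ raised 2, beside 9.86%, 3.91% and 5.7% of all genes called after LPS, PGN and IMQ.

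Partners of dectin-1 and other receptors that bind β-glucan numbered 11, all tested. After BG, Lgals3, the lectin galectin-3 (0.33, limma adjusted p = 8.41e-05), and the scavenger receptor gene Scarf1 (0.32, limma adjusted p = 0.00311) were higher, and Cd37, a tetraspanin that holds dectin-1 at the membrane, was lower (-0.43, limma adjusted p = 2.9e-08). The list's median was 0.05, and its 3 calls of 11 stand beside 41.6% of all genes. Itgam, which encodes the αM chain of complement receptor 3, did not pass (-0.09, limma adjusted p = 0.211). In KO 6 were higher and 2 lower (median 0.14; 28.4% of all genes called), among them Scarf1 (0.59, limma adjusted p = 4.98e-06), Cd37 (-0.24, limma adjusted p = 0.000142) and Itgam (-0.25, limma adjusted p = 0.00254). LPS, PGN and IMQ each had 0 calls in this list by limma, beside 9.86%, 3.91% and 5.7% of all genes called.

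Of 20 genes induced through dectin-1 in earlier work, 14 were tested, and 8 were higher and 3 lower after BG (median 0.32), where 20.2% of all genes were higher and 21.4% lower, with a median of 0.0188. The chemokine genes Cxcl2 (0.81, limma adjusted p = 9.8e-05) and Ccl3 (0.38, limma adjusted p = 3.22e-05) rose, whereas Il1b (6.73 ± 0.132 after BG, 7.89 ± 0.205 after PBS; -1.16, limma adjusted p = 4.25e-06) and the inflammasome gene Nlrp3 (-0.33, limma adjusted p = 5.93e-05) fell. Nlrp3 rose after PGN (0.47, limma adjusted p = 4.24e-05) and IMQ (0.52, limma adjusted p = 3.57e-06). After PGN and IMQ 2 and 1 genes of the list were higher and 0 lower, and LPS moved 1 up and 1 down. Among all genes, PGN, IMQ and LPS called 3.91%, 5.7% and 9.86%. The PGN and IMQ arrays also stood apart in the probe set without a gene, so what sets them apart there and the agent cannot be told apart. In KO 6 were higher and 3 lower (median 0.22; 28.4% of all genes called, median 0.00532), with Tnf up by 0.90 (limma adjusted p = 3.09e-06) and Alox5, the 5-lipoxygenase gene, down (-0.99, limma adjusted p = 3.36e-08).

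Alternative activation, the programme for which Mrc1 and Clec10a serve as markers, was followed with 20 other genes, 19 of them tested. In KO 6 were higher and 1 lower (median 0.13; 28.4% of all genes called). Folr2, a folate receptor of resident macrophages, averaged 10.03 ± 0.3 in KO and 8.52 ± 0.341 in WT (log2 difference 1.51, limma adjusted p = 1.42e-07), and Pparg, a lipid-sensing nuclear receptor, and Stab1, a scavenger receptor, were higher by 0.79 and 0.71 (limma adjusted p = 2.15e-06 and 0.00127). Retnla was higher as well (0.40, limma adjusted p = 0.00237). The lower gene was Pdcd1lg2 (-0.25, limma adjusted p = 0.0263), with no KO array above the floor. The 12 that did not pass included Arg1 (-0.33, limma adjusted p = 0.1), Ccl17 (-0.12, limma adjusted p = 0.677) and Stat6 (0.00, limma adjusted p = 0.997). After BG 4 were higher and 5 lower (median -0.02; 41.6% of all genes called), with Pparg up by 0.46 (limma adjusted p = 0.000833) and F13a1, the clotting factor XIII A chain, down (-0.75, limma adjusted p = 4.81e-05). LPS raised 2 and lowered 1, PGN raised 1 and IMQ raised 2, beside 9.86%, 3.91% and 5.7% of all genes called. Tgm2, a transglutaminase, was higher after both PGN (0.67, limma adjusted p = 5.35e-05) and IMQ (0.77, limma adjusted p = 5.32e-06). These are the groups whose arrays stood apart in the probe set without a gene.

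Cell type markers were also called in these comparisons. Among all genes BG against PBS called 20.2% higher and 21.4% lower (41.6% together), and KO against WT 17.7% higher and 10.7% lower (28.4% together). The marker counts below are to be read beside these shares. After BG 4 of 11 B cell markers tested were lower, with a summed linear signal of 3474 to 4065 after BG and 4538 to 6074 after PBS. With their mean as a covariate the 4 receptor calls of BG against PBS were kept, while 1 of the 4 calls in KO against WT, that of Mrc1, and 1 of the 3 in BG against IMQ were. Of the large peritoneal macrophage markers 1 was higher and 6 lower after BG, and 0 higher and 4 lower in KO. Markers of monocyte-derived macrophages and dendritic cells (14 tested, Cd226 under the floor throughout) had 5 higher and 3 lower after BG, at sums of 13058 to 13564 after BG and 11552 to 14304 after PBS. Those of monocytes (5 tested) had 0 higher and 2 lower after BG and 0 higher and 5 lower in KO. The covariate itself went with genotype, at a mean log2 signal of 7.58 ± 0.257 in KO and 8.49 ± 0.322 in WT (SD, n = 4 each). In KO against WT its fit therefore cannot separate B cells from the absence of ATF7. The part of these cells in the receptor results was not tested.

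Within groups, arrays that were high in Clec4a2 were also high in Mrc1 and Clec4n. Over the 28 arrays, deviations from the group means correlated at 0.88 between Clec4a2 and Mrc1, 0.77 between Clec4a2 and Clec4n and 0.72 between Clec4n and Mrc1, while Clec4e and Mrc1 stood at -0.51. PBS replicate 1 was the lowest and PBS replicate 4 the highest of their group in all 3 of Clec4a2, Mrc1 and Clec4n. These values describe the arrays, which share their RNA sample and normalisation, and were not tested.

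**Figure D4:**
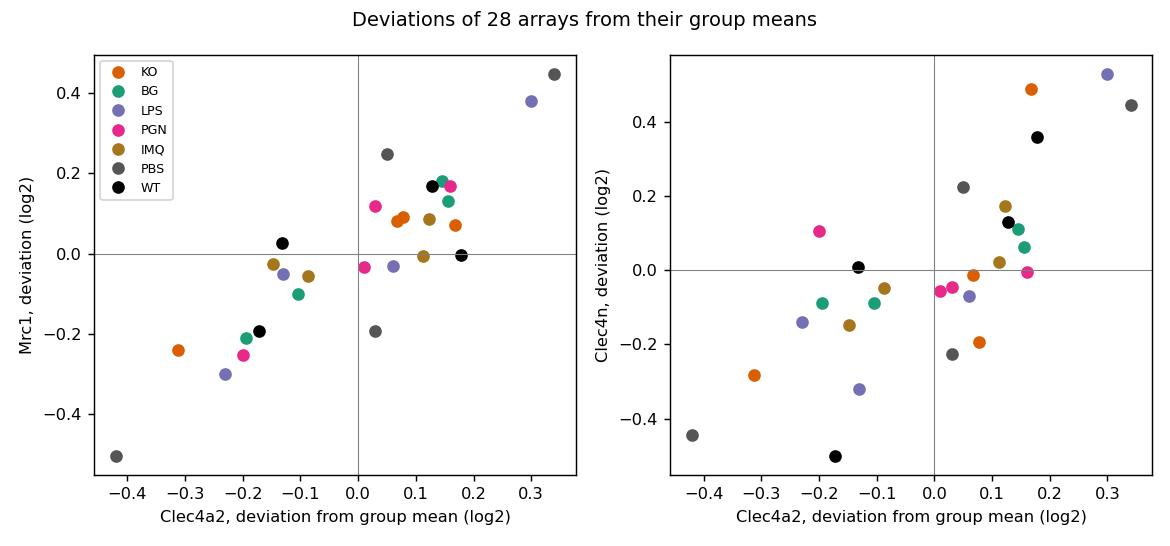
Deviations of log2 signal from the group mean in 28 arrays, for Mrc1 (left) and Clec4n (right) on the vertical axes against Clec4a2 on the horizontal axes; colours mark groups. The points run from low in both genes to high in both, with correlations of 0.88 and 0.77.

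The genes whose signal over all 28 arrays was most like that of each receptor were found by Pearson correlation, with the correlation of deviations from group means beside it. For Clec7a they were Il10rb (0.81, deviations 0.61), Irf8 (0.80, deviations 0.58) and Ostm1 (0.79, deviations 0.70). For Clec4n they were Gstm1 (0.93, deviations 0.79), Tmem43 (0.90, deviations 0.88) and Prr13 (0.88, deviations 0.81). Clec4d stood nearest to Nbr1 (0.81, deviations 0.47), Dmxl2 (0.81, deviations 0.61) and Rprd1a (0.80, deviations 0.59).

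Clec4e was most like Bcl3 (0.87, deviations 0.85), which encodes a nuclear IκB protein, Cd82 (0.87, deviations 0.87) and N4bp1 (0.86, deviations 0.82), so its likeness lay in the variation inside groups about as much as over all arrays. Clec4a2 was most like Atp13a3 (0.87, deviations 0.83), Emb (0.87, deviations 0.85) and Plp2 (0.84, deviations 0.76). Clec10a was most like Lpl (0.92, deviations 0.86), which encodes lipoprotein lipase, Nqo1 (0.91, deviations 0.83) and Mmp12 (0.90, deviations 0.86). Mrc1 was most like Steap3 (0.93, deviations 0.81), Gas6 (0.92, deviations 0.86), which encodes a ligand of TAM receptors, and Gla (0.90, deviations 0.77). The correlations are over the same arrays from which the genes were picked and describe them only.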

How the data were processed

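Messenger RNA of mouse peritoneal resident macrophages was measured on 28 Affymetrix arrays, 4 in each of 7 groups taken from the sample titles. The authors deposited 1 linear intensity per probe set and array, made with Affymetrix Expression Console and RMA (background correction, quantile normalisation and probe summary) per the submitters' processing notes; a build or version is not given in the sources used here. The log2 was taken here, with no further normalisation. Array number, 4 a group, limits the precision. The limma p-values weigh a difference between group means against the spread within groups, estimated over all 7 groups.

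Of 35556 probe sets, the 21789 with 1 symbol in the platform table were used (21698 matched RefSeq by Entrez identifier, 0 symbols changed). As a floor served the level under which 95% of 1205 probe sets for odorant or vomeronasal receptors had their mean (log2 6.32, linear 80.2). A gene had to exceed it in at least 4 arrays, and its brightest probe set was taken, leaving 13503 genes. A linear model with 1 mean per group over 28 arrays was fitted with limma 3.58.1 in R 4.3.3 (intensity trend, Benjamini-Hochberg within each comparison, threshold 0.05). Exact permutation tests of 4 against 4 arrays reach 0.0286 at the lowest. On data simulated for BG against PBS (13503 genes), the procedure recovered 20% of genes shifted by 0.2, 90% by 0.5 and 100% by 1 or 2 on the log2 scale. Alternatives were other normalisation, filter, probe-set, variance, sample, block and covariate choices, and leaving out each array. Figures used matplotlib 3.10.9.

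The members and lists were chosen with earlier results of these data known. Some genes stand in more than 1 list, so the counts of different lists are not separate. Mgl2 is in the lists of other receptors, alternative activation and monocyte-derived macrophages. Cd209a, Ccl22, Retnla, Irf4 and Ccr2 are also in more than 1 list. The text names the 7 members; per list and comparison up to 4 called genes with the smallest p and no overlap of arrays; Syk, Card9, Fcer1g, Itgam, Mgl2, Cd209a, Clec5a and Atf7; and per member the 3 genes with the highest Pearson r over 28 arrays. Examples were picked from these. Clec4b1 was named as a member of the Clec4 cluster after its values were seen. Arg2, Nbr1, Psmb10 and Psme1 were named as a further split of arrays found after values were seen. In KO, Inpp5d, Rel, Csf3r, Mmp8, Pdcd1lg2, Retnla, Arg1, Ccl17 and Stat6 were also named after values were seen, so that both directions are given. Of the remaining marker lists, T and NK cell markers (4 tested) had 1 higher and 0 lower in KO and none called after BG, mast cell markers (1 tested) none in both, eosinophil markers (2 tested) 1 lower in KO and none after BG, mesothelial markers (6 tested) none in KO and 2 higher after BG, and neutrophil markers (5 tested) 1 higher and 2 lower in KO and 2 lower after BG. Of all genes, 28.4% were called in KO and 41.6% after BG.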

Additional observations from a re-analysis of the deposited data

Results flagged for a closer look

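In 3 of 49 sets of 4 arrays (7 genes in 7 groups) a single array stood apart from its group by Dixon's criterion, which flags about 1 in 20 sets by chance. PGN replicate 1 read 10.76 in Clec7a, where the other 3 PGN arrays read 10.47 to 10.51 (gap over range 0.864). BG replicate 2 read 12.02 in Clec4d, below the other 3 at 12.06 (gap over range 0.905), a distance of little size in a group with an SD of 0.0209. KO replicate 4 read 8.25 in Mrc1, where the other 3 KO arrays read 8.56 to 8.58 (gap over range 0.953), and still lay above every WT array. The call of Mrc1 in KO against WT, of Clec4d in BG against PBS and of Clec7a in BG against PGN was kept without each of these arrays.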

How the results depend on the processing

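No value in any alternative changed direction past the threshold, and of 567 single-receptor values under 9 alternatives, 538 stayed on the same side of it, 24 lost the call and 5 gained it. Of the 7 receptors, IMQ against PBS called 1 in place of 2 with arrays centred on their medians, no floor filter, no intensity trend, the replicate block or the B cell covariate. PBS against WT called 1 in place of 2 after a further quantile normalisation, in a fit of only the 2 groups and with the B cell covariate. With only the 2 groups, LPS called 1 and BG against PGN 3, and genes called were 2409 in KO against WT, 507 after LPS, 272 after PGN and 2066 in PBS against WT. Further quantile normalisation gave 862 genes after LPS. With the B cell covariate KO against WT called 1 receptor and 1134 genes, IMQ against PBS 373 genes, and BG against IMQ 1 receptor and 2391 genes. The cause of these changes was not tested.

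Without each array in turn, receptors called numbered 3 to 6 in KO against WT, 0 to 4 after LPS, 2 in every case after PGN, 1 to 2 after IMQ, 4 in every case after BG, 1 to 3 in PBS against WT, 2 to 4 in BG against LPS, 1 in every case in BG against PGN and 2 to 3 in BG against IMQ. Genes called numbered 2942 to 3991, 4 to 1556, 283 to 483, 400 to 758, 4835 to 5275, 2752 to 5303, 4076 to 4611, 3638 to 3937 and 3961 to 4594 in the same order. The lowest values came without LPS replicate 2 for LPS, without PGN replicate 4 for PGN, without IMQ replicate 1 for IMQ and without WT replicate 2 for PBS against WT.

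The labels do not say that replicate numbers pair arrays, and deviations of same-numbered arrays correlated at -0.52 to 0.48, with 26 of 84 pairs over 0.1. The replicate block moved the call of Clec4d after IMQ (adjusted p = 0.0501) and no other receptor call. Signals near the floor and 4 arrays a group limit what small differences can be seen: of differences of 0.2 on the log2 scale, 20% were recovered in simulation over all genes. That share does not give the recovery for Clec4d, which had differences of about this size. Its signal lay far above the floor and its spread was small (SE 0.038 in BG against PBS).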
